A study of Mus musculus with 27 samples.

Results

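The genes described here are 9 mouse genes that take part in amyloid processing or carry human Alzheimer disease risk: App, Bace1, Psen2, Sorl1, Bin1, Picalm, Cd2ap, Ptk2b and Abca7. They were chosen by symbol, and all 9 are among the 31053 genes listed for each library. Their expression was measured by single-nucleus RNA-seq in the hippocampi of 27 adult mice under a year of age, with 1 library per mouse. The study crossed P301S mice, which carry human tau with a dementia-linked mutation under the mouse Prnp promoter, with mice carrying a germline deletion of Cgas, which encodes an enzyme that senses DNA in the cytosol. Among mice without the transgene 5 were Cgas+/+ (3 of them male and 2 female), 2 males were Cgas+/- and 2 males Cgas-/-. The groups P301S Cgas+/+, P301S Cgas+/- and P301S Cgas-/- each held 3 male and 3 female mice. The labels name no treatment and no strain. The question was whether tau and the loss of Cgas change these genes, and in which kinds of nuclei.

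App encodes the amyloid precursor protein. Bace1 is the β-secretase that makes the first cut towards amyloid-β, and Psen2 is a catalytic subunit of the γ-secretase complex that makes the second. Sorl1 is a sorting receptor that carries App away from compartments where it is cleaved. Bin1, Picalm and Cd2ap act in endocytosis: Bin1 binds and bends membranes, Picalm recruits clathrin, and Cd2ap is a scaffold that links membranes to actin. Ptk2b (Pyk2) is a calcium-responsive tyrosine kinase related to focal adhesion kinase, and Abca7 is a lipid transporter. In the brain these genes are used by neurons and by glia, and variants near several of them lie in enhancers that are active in microglia. In the annotation of GRCm38, the assembly of mm10, App lies on chr16:84949685-85173766 and Ptk2b on chr14:66153257-66281052. Sorl1 (chr9:41964720-42124297) and Bace1 (chr9:45838580-45864399) share a chromosome, and Psen2 lies on chr1:180227004-180263438, Picalm on chr7:90130213-90213465, Cd2ap on chr17:42792951-42876665 and Abca7 on chr10:79996494-80015572. Pre-mRNA counting takes reads from exons and introns alike. Only Picalm shares its strand with other annotated genes, 4 predicted genes that the files do not list.

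The libraries held between 46091490 and 79484316 UMIs, and 204852 nuclei were kept (5840 to 12572 per mouse). Clusters of nuclei took their names from marker genes, and a name such as microglia-like means resemblance by markers only. Of 66 clusters 53 were named, and 13 stayed unnamed with 10607 nuclei (5.18%), of which 10154 lay in 5 clusters made up mostly of 1 library. Of 234470 distinct barcode sequences 7324 (3.12%) occurred in more than 1 library. Cgas itself, which the files list under its older symbol, followed the labels only in part. In microglia-like nuclei of transgene-free mice its level was 35.4 ± 2.41 CPM in libraries labelled Cgas+/+, 19.1 ± 4.65 CPM in Cgas+/- and 27.3 ± 8.14 CPM in Cgas-/- (mean ± SD), so both groups with a deleted allele had lower means than Cgas+/+. In P301S mice the order ran against the labels, with 37.9 ± 11.5 CPM in Cgas+/+, 42.7 ± 11.2 CPM in Cgas+/- and 51.4 ± 7.01 CPM in Cgas-/-. Whether the counted reads lie in the deleted part of the gene is not known here, so genotypes below are those of the labels.

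The members differed most between kinds of nuclei. A level is the gene's share of all UMIs in a class as counts per 1000000 (CPM), averaged over 27 mice. These levels are not scaled for length and were therefore compared between classes of nuclei and not between genes. Nuclei of the classes also held unequal numbers of UMIs. Median UMIs per nucleus were 1630 in the microglia-like cluster, 1799 in the largest oligodendrocyte-like and 7928 in the largest excitatory neuron-like cluster. A higher level is a higher share of UMIs and need not be a higher count per nucleus, which was not compared. Microglia-like nuclei held the highest level of 5 members (Psen2, Picalm, Cd2ap, Ptk2b and Abca7), oligodendrocyte-like nuclei of 3 (App, Bace1 and Bin1) and excitatory neuron-like nuclei of 1 (Sorl1), among 6 classes. In transgene-free mice alone Ptk2b did not have its highest mean in microglia-like nuclei. Psen2 there was close to its oligodendrocyte-like level, as given below. Neighbours in each gene's order were compared within mice by a 2-sided sign-flip permutation test (100000 resamples, smallest p 1e-05), and 32 of the 45 steps were past an adjusted p of 0.05.

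Of the genes of the amyloid pathway itself, App was highest in oligodendrocyte-like nuclei at 1550 ± 205 CPM (SD, n = 27), followed by inhibitory neuron-like nuclei at 650 ± 55.4 CPM and excitatory neuron-like nuclei at 527 ± 39.1 CPM. Oligodendrocyte-like nuclei exceeded inhibitory neuron-like nuclei in 27 of 27 mice, and every further step down to astrocyte-like nuclei (195 ± 37.0 CPM) was also past the threshold. Excitatory neuron-like nuclei, the most numerous class and one with more UMIs per nucleus, supplied 57.6% of all App UMIs, against 21.5% from oligodendrocyte-like nuclei. Bace1 had the same leading class, with 79.6 ± 6.85 CPM in oligodendrocyte-like and 38.0 ± 4.65 CPM in inhibitory neuron-like nuclei. Bace1 in excitatory neuron-like, astrocyte-like and progenitor-like nuclei (32.6, 32.1 and 30.6 CPM) could not be ordered, since these steps were not past the threshold. Psen2 was highest in microglia-like nuclei at 24.6 ± 11.1 CPM, above oligodendrocyte-like nuclei (17.5 ± 2.60 CPM) in 21 of 27 mice. That lead was seen in the 18 P301S mice, with 28.0 ± 11.6 against 17.6 ± 1.85 CPM. In the 9 transgene-free mice the 2 classes were close, with 17.7 ± 5.90 against 17.2 ± 3.82 CPM.

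The sorting receptor Sorl1 had a different order. Excitatory neuron-like (193 ± 30.3 CPM) and astrocyte-like nuclei (186 ± 25.2 CPM) led and did not differ beyond their spread, with excitatory neuron-like nuclei higher in 16 of 27 mice. Microglia-like nuclei followed at 108 ± 30 CPM. Oligodendrocyte progenitor-like nuclei had 17.5 ± 5.29 CPM of Sorl1, lower than oligodendrocyte-like nuclei (82.0 ± 14.3 CPM) in 27 of 27 mice.

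The endocytic genes each had their highest level in a glia-like class. Bin1 stood at 1200 ± 120 CPM in oligodendrocyte-like nuclei and 891 ± 143 CPM in microglia-like nuclei, against 136 ± 16 CPM in excitatory neuron-like nuclei. Other glia-like classes had less Bin1 than excitatory neuron-like nuclei, with 87.2 CPM in progenitor-like and 41.7 ± 5.3 CPM in astrocyte-like nuclei. Picalm was led by microglia-like nuclei (665 ± 147 CPM), followed by oligodendrocyte-like nuclei (350 ± 50.6 CPM) and astrocyte-like nuclei (99.1 ± 8.03 CPM). Cd2ap fell in the order microglia-like (214 ± 34.3 CPM), oligodendrocyte-like (140 ± 17.4 CPM), astrocyte-like (108 ± 9.68 CPM), progenitor-like (99.2 ± 13.2 CPM), inhibitory (78.5 ± 12.1 CPM) and excitatory neuron-like nuclei (68.8 ± 11 CPM), and each step was past the threshold. Both neuronal classes were at the low end for Picalm and Cd2ap.

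Ptk2b had a pair of high classes. It measured 407 ± 76.9 CPM in microglia-like and 318 ± 82.3 CPM in excitatory neuron-like nuclei, and the next class, oligodendrocyte-like nuclei, was at 31.3 ± 9.74 CPM. The order of the first 2 means was not the same without and with the transgene, which was not tested. The make-up of the excitatory neuron-like class also differed between these groups, as given below. In the 9 transgene-free mice the means were 323 ± 23.8 CPM in microglia-like and 336 ± 77.8 CPM in excitatory neuron-like nuclei. In the 18 P301S mice they were 449 ± 56.5 and 309 ± 85.2 CPM. Excitatory neuron-like nuclei supplied 90.4% of all Ptk2b UMIs. The lipid transporter Abca7 was low throughout, from 28.7 ± 7.78 CPM in microglia-like to 6.81 ± 1.75 CPM in astrocyte-like nuclei.

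**Figure D1:**
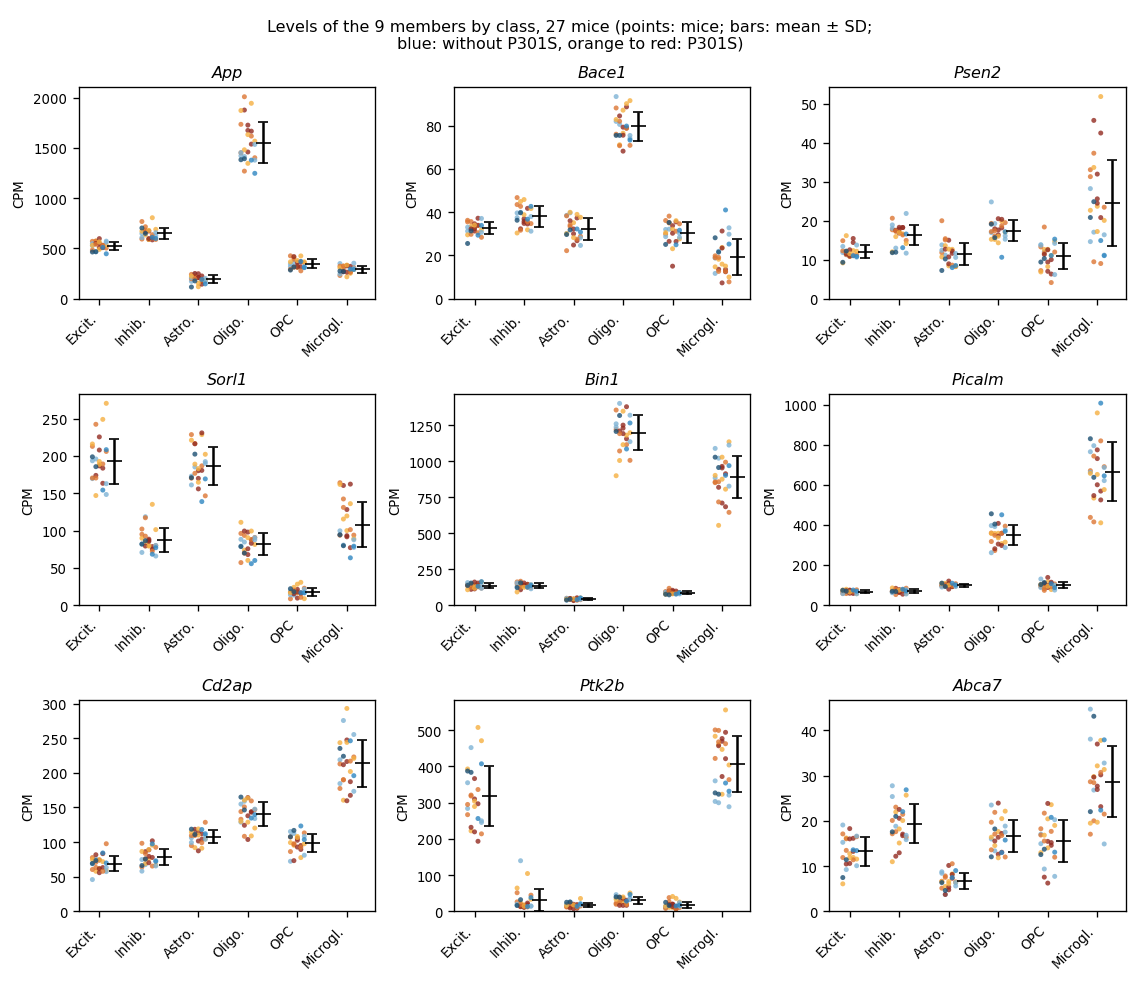
Level of each of the 9 members in CPM (vertical axis, from 0) in 6 classes of nuclei (horizontal axis), with 1 point per mouse and the mean ± SD over 27 mice. Over all 27 mice App, Bace1 and Bin1 peak in oligodendrocyte-like nuclei, whereas Psen2, Picalm, Cd2ap, Ptk2b and Abca7 peak in microglia-like nuclei. In transgene-free mice alone the Ptk2b mean is 323 CPM in microglia-like and 336 CPM in excitatory neuron-like nuclei. For Psen2 it is 17.7 CPM in microglia-like and 17.2 CPM in oligodendrocyte-like nuclei.

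RNA released from broken cells gives UMIs in every droplet, so low levels were set beside an estimate of that background. For each glia-like class the estimate was the median, over 8 excitatory neuron markers, of the glial level as a percentage of the neuronal level, multiplied by the neuronal level of the member. The median percentage was 10.3% in astrocyte-like, 17.3% in oligodendrocyte-like, 11.1% in progenitor-like and 18.5% in microglia-like nuclei. Single markers differed widely, and in progenitor-like nuclei pooled over mice they ran from 4.79% (Camk2a) to 39.8% (Arpp21). The estimate can also be too high, since for Ptk2b in astrocyte-like nuclei it was 35.7 CPM against 17.6 CPM measured. Ptk2b was at or below this estimate in 27 of 27 mice in astrocyte-like nuclei. The same held in 26 of 27 mice in oligodendrocyte-like and in 26 of 27 in progenitor-like nuclei. These levels were thus not told apart from background, and whether they are background was not tested. In microglia-like nuclei the Ptk2b level of 407 CPM compared with an estimated background of 62.6 CPM, and no mouse was at or below it. Sorl1 in progenitor-like nuclei was at or below background in 22 of 27 mice, whereas Sorl1 in astrocyte-like nuclei (186 CPM against 21.3 CPM) was above it in all 27. App in microglia-like nuclei, at 294 CPM, had an estimated background of 103 CPM. The excitatory markers may also be carried by intact neuronal fragments, which were not measured and which this estimate would not separate.

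**Figure D2:**
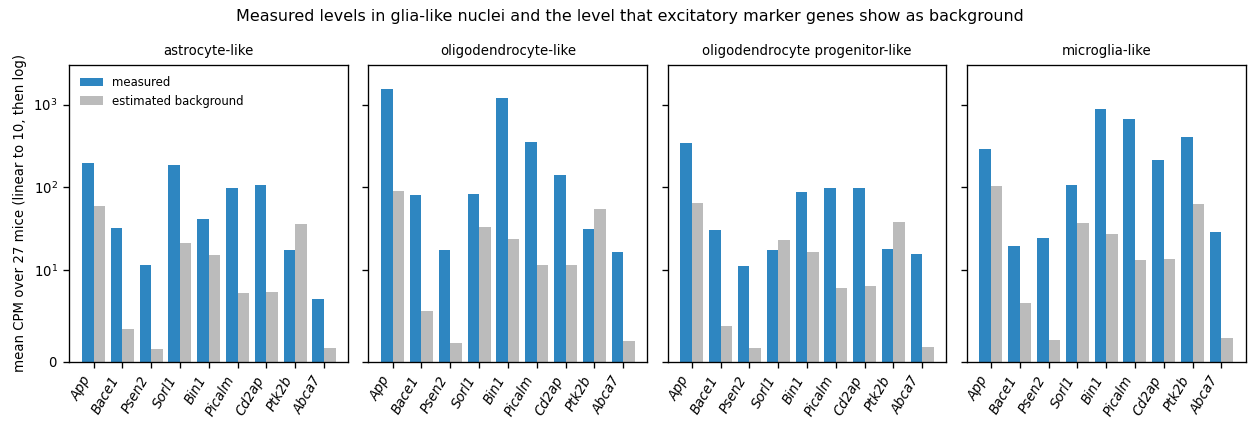
Mean level of each member over 27 mice in CPM (vertical axis, linear to 10 and logarithmic above) in 4 glia-like classes, beside the level that excitatory neuron markers would predict from background. Ptk2b lies at or under the prediction in astrocyte-like, oligodendrocyte-like and progenitor-like nuclei and well above it in microglia-like nuclei.

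Within excitatory neurons the members also differed by hippocampal field, where 11 of 18 steps between dentate granule-like, CA1-like and CA3-like nuclei were past the threshold. Ptk2b fell from dentate granule-like (552 ± 71.6 CPM) to CA3-like (452 ± 59.5 CPM) to CA1-like nuclei (374 ± 60.1 CPM) over the 22 mice with at least 20 nuclei in each. App was highest in CA3-like nuclei, with 621 ± 60.4 CPM against 575 ± 41.7 CPM in CA1-like nuclei of the same 22 mice (17 of 22 mice, permutation p = 0.0098, adjusted p = 0.015). Dentate granule-like nuclei had the lowest App level, 397 ± 34.5 CPM, below CA1-like nuclei (573 ± 44.4 CPM) in 26 of 26 mice. Sorl1 led in CA1-like nuclei among these 3 at 294 ± 49.4 CPM and was lowest in CA3-like nuclei at 137 ± 25.0 CPM. CA2-like nuclei reached 20 nuclei in 8 mice and were left out of this order; their Sorl1 level was 339 ± 28.4 CPM, with 664 ± 145 CPM of App and 453 ± 57.5 CPM of Ptk2b. CA3-like nuclei had more Bin1 than CA1-like nuclei (203 ± 33.2 against 142 ± 23 CPM, 22 of 22 mice) and more Abca7 (19.7 ± 6.38 against 9.73 ± 2.50 CPM, 21 of 22 mice).

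Smaller classes were present in part of the mice and are described without a test. Endothelial-like nuclei (21 mice) had App at 1380 ± 233 CPM and Cd2ap at 449 ± 109 CPM, the latter above every mean over the 6 main classes. T cell-like nuclei, which reached 20 nuclei in 4 mice, all of them P301S, had Ptk2b at 530 ± 48.5 CPM and Sorl1 at 453 ± 196 CPM. Committed oligodendrocyte precursor-like nuclei (9 mice, all P301S) had Bin1 at 516 ± 103 CPM and Bace1 at 110 ± 48.4 CPM. Bin1 thus lay between its levels in progenitor-like (87.2 CPM) and oligodendrocyte-like nuclei (1200 CPM), which are means over mice of all genotypes.

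The genes whose means over 9 classes were most like each member's were ranked by Pearson's r on the log2 scale among 11756 genes. This is a description only, since all classes share libraries. Dentate granule-like, CA1-like and CA3-like nuclei are moreover parts of the excitatory neuron-like class. The best r that an arbitrary gene would reach is not given here. Cd2ap was closest to Dram2 (r = 0.994), Picalm to Rasgrp3 (0.989), Bin1 to St3gal3 (0.984) and App to Hcn2 (0.981). Psen2 was closest to Bsdc1 (0.978), Bace1 to Mapk8ip1 (0.971) and Ptk2b to Vipr1 (0.964). Sorl1 and Abca7 had the least close neighbours, D430042O09Rik (0.944) and Tyw1 (0.916). Among the members themselves Picalm and Cd2ap were the most alike (r = 0.95), followed by Psen2 and Picalm (0.81).

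Promoters are shown for Sorl1 and Psen2, called higher in microglia-like nuclei of all P301S than of all transgene-free mice, as given below. That of Picalm is also shown, chosen because its window holds the most matches to the letters searched. RefSeq sequences (GRCm38) of 6 members were searched. The table used lists none for Ptk2b and Bace1, and Bin1 was not searched. The letters GAGGAA, the core of sites bound by the microglial transcription factor PU.1, and their reverse complement TTCCTC were searched in windows of 250 bases before and 50 after each start. They were present in 28.3% of 32851 promoters and in 3 of the 8 windows of members. The 250 bases before the start are printed 5′ to 3′ on the strand of the gene, in lower case with matches in capitals. Sorl1 (chr9:42124298-42124547, minus strand) and Psen2 (chr1:180256301-180256550, minus strand) hold no match in the windows shown, and Picalm (chr7:90129963-90130212, plus strand) holds 2. A further window of Psen2, at another start, and the window of App hold 1 match each. Cd2ap, Abca7 and a further window of Sorl1 hold none.
Sorl1: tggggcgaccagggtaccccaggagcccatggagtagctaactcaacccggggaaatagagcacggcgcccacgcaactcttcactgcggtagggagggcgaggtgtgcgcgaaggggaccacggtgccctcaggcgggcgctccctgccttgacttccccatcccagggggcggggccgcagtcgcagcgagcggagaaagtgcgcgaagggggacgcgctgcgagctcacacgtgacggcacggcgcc
Psen2: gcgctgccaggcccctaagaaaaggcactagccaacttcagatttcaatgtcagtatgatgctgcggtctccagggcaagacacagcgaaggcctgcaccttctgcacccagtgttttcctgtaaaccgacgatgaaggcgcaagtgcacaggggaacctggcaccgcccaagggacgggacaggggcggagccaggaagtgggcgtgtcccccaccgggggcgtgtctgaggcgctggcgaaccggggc
Picalm: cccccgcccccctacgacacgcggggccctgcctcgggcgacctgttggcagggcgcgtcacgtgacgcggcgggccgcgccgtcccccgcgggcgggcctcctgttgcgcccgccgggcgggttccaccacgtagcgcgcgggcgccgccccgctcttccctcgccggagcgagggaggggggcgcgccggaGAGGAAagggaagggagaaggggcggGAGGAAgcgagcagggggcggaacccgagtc
A match describes these letters only, and their absence says nothing of the factor.

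The clearest difference between genotypes was in microglia-like nuclei, where Ptk2b, Sorl1 and Psen2 were higher in P301S mice. Differences were tested on UMI counts summed per mouse and class with the edgeR quasi-likelihood test and Benjamini-Hochberg adjustment over all genes of the class. The comparison of P301S with transgene-free mice gave the 3 Cgas genotypes equal weight, with sex as a covariate, over 27 mice. Of 54 pairs of a member and a class 3 were past an adjusted p of 0.05, all higher in P301S and all in microglia-like nuclei, against 2.52% of all genes tested in the 6 classes. In microglia-like nuclei alone 3 of 9 members were called, against 7.45% of 9719 genes called higher and 11.6% called in either direction. At an unadjusted p under 0.05 there were 14 of 54 pairs (background 14.9%) and, in microglia-like nuclei, 5 of 9 members (background 25.4%).

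Ptk2b in microglia-like nuclei measured 288.9, 299.9, 303.5, 320.9 and 360.3 CPM in the 5 Cgas+/+ mice, 331.8 and 354.3 CPM in the Cgas+/- mice and 323.5 and 327.1 CPM in the Cgas-/- mice. In P301S Cgas+/+ mice the lowest, median and highest values were 323, 454 and 556 CPM, in P301S Cgas+/- mice 364, 465 and 501 CPM and in P301S Cgas-/- mice 372, 463 and 494 CPM. All but 1 of the 18 P301S mice (P301S Cgas+/+ replicate 2) thus lay above the highest transgene-free mouse. The fitted difference was 0.41 ± 0.09 on the log2 scale (SE), or 1.33-fold, with a 95% interval of 0.23 to 0.59 and an adjusted p of 0.00469. This call was kept when each of the 27 mice was left out in turn (adjusted p between 0.000877 and 0.0332).

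Sorl1 in microglia-like nuclei ranged from 63.4 to 99.6 CPM in the 9 transgene-free mice (median 80.5 CPM) and from 77.0 to 164 CPM in the 18 P301S mice (median 117 CPM), so the groups overlapped. The means were 83.9 ± 11.1 and 120 ± 29.2 CPM, and the fitted difference was 0.59 ± 0.16 (log2, 1.51-fold, adjusted p = 0.0147). The means of the 3 P301S groups were close to one another at 120, 121 and 119 CPM. Without Cgas+/- replicate 2 the adjusted p was 0.0509, and without Cgas-/- replicate 2 it was 0.0567.

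Psen2 was a sparser measurement, with 538 UMIs over the microglia-like nuclei of all mice. Transgene-free mice ranged from 11.1 to 28.2 CPM and P301S mice from 9.04 to 51.8 CPM, with means of 17.7 ± 5.90 and 28.0 ± 11.6 CPM. The fitted difference of 0.83 ± 0.27 (log2, 1.77-fold) had an adjusted p of 0.0472, and this call was kept in 12 of 27 fits that left out 1 mouse.

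The other 6 members were not past the threshold in microglia-like nuclei. Bace1 had means of 16.1 ± 6 CPM in P301S and 25.7 ± 8.53 CPM in transgene-free mice (log2 -0.62, adjusted p = 0.0753), and Bin1 849 ± 146 and 977 ± 95.3 CPM (log2 -0.29, adjusted p = 0.0646). Picalm and Abca7 had fitted differences of -0.23 and -0.28. The intervals for App (-0.21 to 0.18) and Cd2ap (-0.29 to 0.17) left room only for differences below 1.5-fold in either direction.

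Within the P301S groups these members spread widely. Picalm ranged from 410 to 958 CPM in P301S Cgas+/+, from 415 to 819 CPM in P301S Cgas+/- and from 524 to 774 CPM in P301S Cgas-/- mice, with means of 631, 629 and 624 CPM. Bin1 ranged from 555 to 1140 CPM in P301S Cgas+/+ mice and from 684 to 965 CPM in P301S Cgas-/- mice. Abca7 and Bace1 rest on few UMIs (545 and 363 over all mice), and their P301S group means lay between 24.4 and 29.1 CPM and between 15.2 and 17 CPM. In each of these members the P301S groups overlapped.

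**Figure D3:**
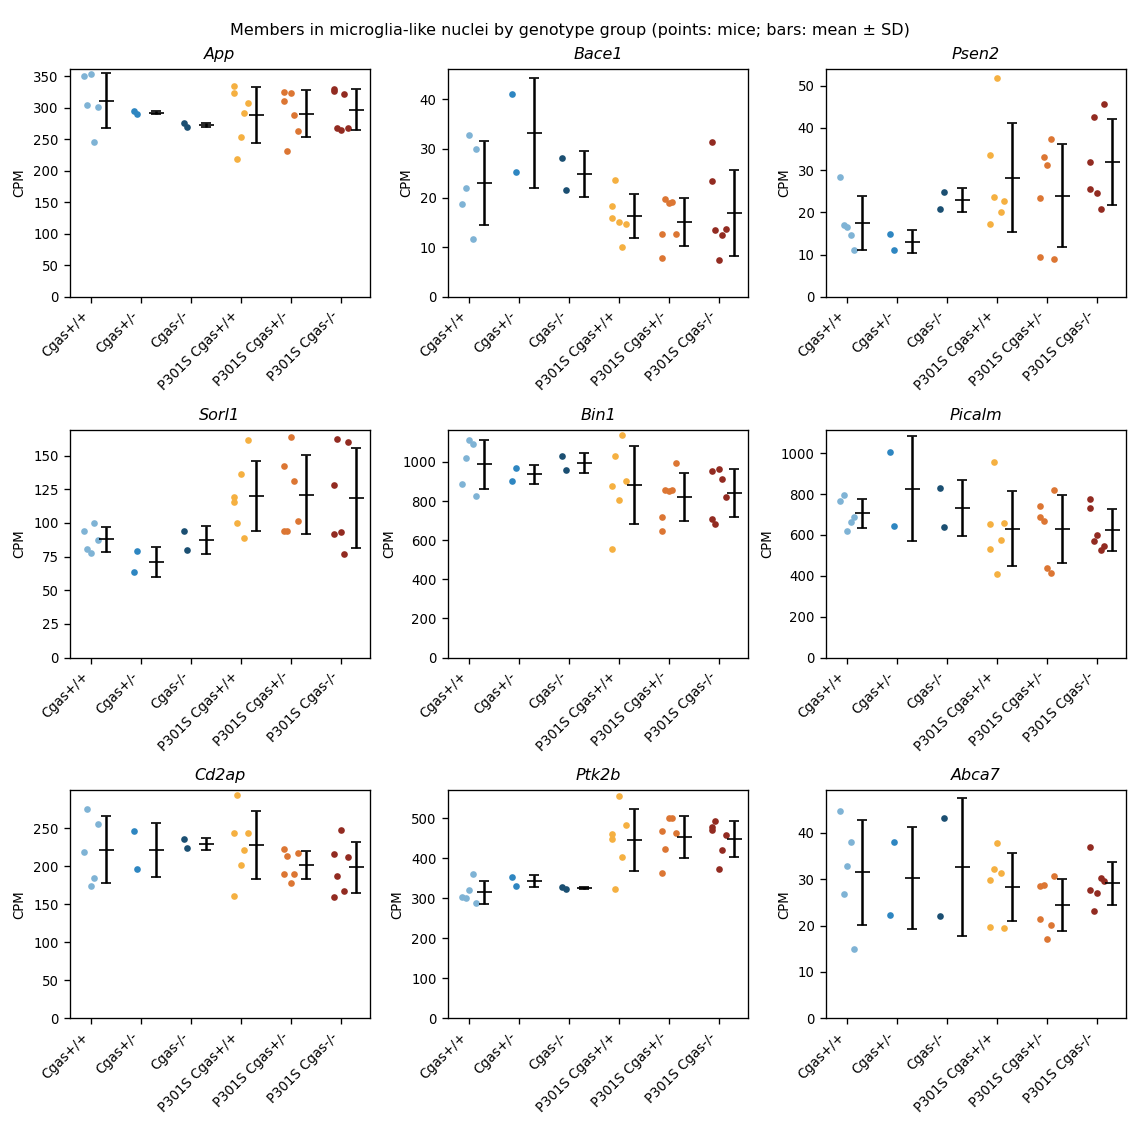
Level of each member in microglia-like nuclei in CPM (vertical axis, from 0) for the 6 genotype groups (horizontal axis), with 1 point per mouse and the mean ± SD of each group (n = 5, 2, 2, 6, 6 and 6). The 3 P301S groups stand at 446, 453 and 449 CPM for Ptk2b, against 315, 343 and 325 CPM in the groups without the transgene.

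Both software versions in the file headers held the same directions. In the 12 libraries of Cell Ranger 3.0.2 (all male, 2 mice of each group) the P301S difference was 0.35 for Ptk2b, 0.43 for Sorl1 and 0.69 for Psen2, and in the 15 libraries of 3.1.0, where Cgas+/+ was the sole transgene-free genotype, it was 0.52, 0.50 and 1.01. No adjusted p was below 0.05 within a version (lowest 0.0723 and 0.135). Marker lists were also compared between transgene-free and P301S mice in these nuclei. The excitatory neuron and microglia lists lay lower in P301S mice, and the ranges of all lists overlapped. The summed level of 8 excitatory neuron markers, none of them at 0, ranged from 383 to 796 CPM in transgene-free and from 252 to 692 CPM in P301S mice, with group means of 640, 545 and 506 CPM without and 453, 454 and 411 CPM with the transgene. The summed level of 8 microglia markers ranged from 6380 to 8130 and from 4020 to 7460 CPM, that of 6 macrophage markers from 3.73 to 388 and from 0 to 114 CPM, and that of 6 T cell markers from 0 to 11.7 and from 0 to 22.8 CPM. The part of the excitatory neuron, microglia, macrophage and T cell markers in the result was not tested.

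Within the Cgas+/+ background alone, P301S Cgas+/+ (6 mice) was compared with Cgas+/+ (5 mice). Of 54 pairs 0 were past the threshold with edgeR, against 0.0123% of all genes, and 1 was with DESeq2. The share of all genes called with DESeq2 is not given, so its counts here and below stand without a background. At an unadjusted p under 0.05 there were 3, all higher in P301S, against 6.80% of all genes. They were Ptk2b in microglia-like nuclei (446 ± 78.1 against 315 ± 28.0 CPM, log2 0.50 ± 0.12, adjusted p = 0.093), Sorl1 in the same nuclei (log2 0.49, adjusted p = 0.247) and Cd2ap in inhibitory neuron-like nuclei (80.5 ± 11.7 against 67.9 ± 6.70 CPM, log2 0.26, adjusted p = 1.0). The Cd2ap difference turned to -0.03 within version 3.0.2 and was 0.39 within 3.1.0. Psen2 in microglia-like nuclei had a log2 difference of 0.74 (adjusted p = 0.334).

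Loss of Cgas in P301S mice moved no member past the threshold. Between P301S Cgas-/- and P301S Cgas+/+ 0 of 54 pairs were called with edgeR (0.0% of all genes) and 0 with DESeq2, and 3 had an unadjusted p under 0.05 (6.36% of all genes), all for Ptk2b and all lower. In microglia-like nuclei Ptk2b was 449 ± 44.6 CPM against 446 ± 78.1 CPM, a log2 difference of -0.01 with an interval of -0.24 to 0.22. The intervals were -0.44 to 0.32 for Sorl1, -0.46 to 0.75 for Psen2 and -0.39 to 0.18 for Bin1, and Cd2ap was at 198 ± 33.1 against 227 ± 44.7 CPM (-0.52 to 0.05). Between P301S Cgas+/- and P301S Cgas+/+ 0 of 54 pairs were called with either tool (edgeR background 0.00273%), and 0 had an unadjusted p under 0.05 (background 5.44%). For Ptk2b in microglia-like nuclei that difference was 0.01, from -0.22 to 0.25.

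The interaction, which asked whether the P301S difference itself differed between Cgas-/- and Cgas+/+ mice, was past the threshold for 0 of 54 pairs with edgeR (0.0412% of all genes) and 0 with DESeq2. An unadjusted p under 0.05 was reached by 5 pairs, against 7.60% of all genes. For Ptk2b in microglia-like nuclei the interaction was -0.11, from -0.51 to 0.28. The transgene-free side of this test rests on 2 Cgas-/- mice.

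**Figure D4:**
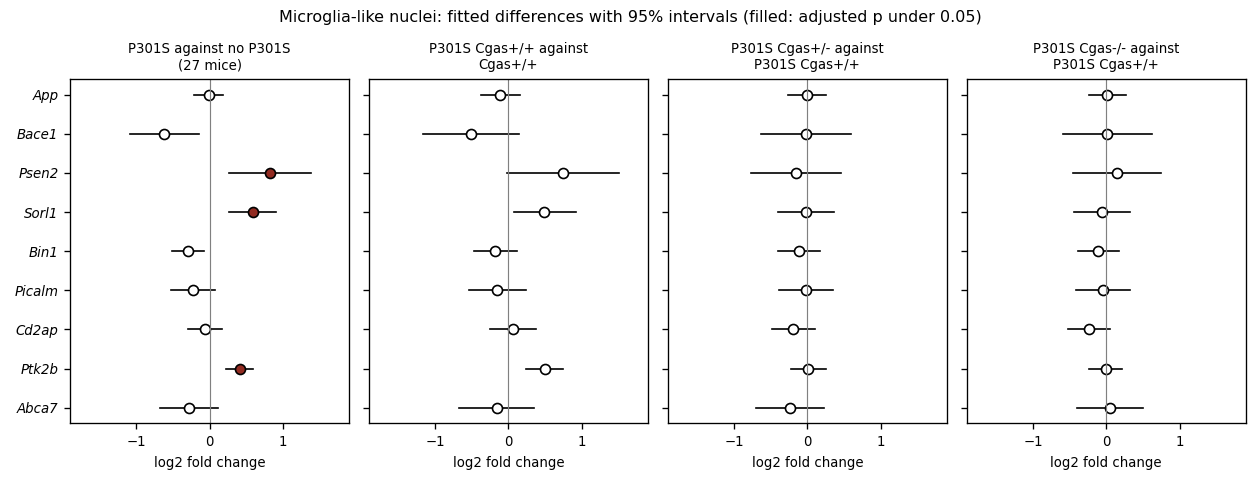
Fitted log2 differences of the 9 members in microglia-like nuclei (horizontal axis) with 95% intervals, for the comparisons named over the panels. Filled points are past an adjusted p of 0.05, and those are Ptk2b, Sorl1 and Psen2 in the comparison of all P301S with all transgene-free mice.

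In excitatory neuron-like nuclei the level of Ptk2b differed between mice along with the make-up of the class. The 5 Cgas+/+ mice measured 245.6, 250.1, 284.1, 355.1 and 452.1 CPM, and the lowest, median and highest values were 222, 349 and 508 CPM in P301S Cgas+/+ and 194, 265 and 367 CPM in P301S Cgas-/- mice. The share of excitatory neuron-like nuclei that were dentate granule-like, CA1-like, CA2-like or CA3-like (together hippocampal-like) ran from 4.26% to 91.2% per mouse, with group means of 46.3% in Cgas+/+, 59.6% in Cgas+/- and 82.7% in Cgas-/- mice, and of 57.9% in P301S Cgas+/+, 30.7% in P301S Cgas+/- and 28.1% in P301S Cgas-/- mice. Across the 27 mice the Ptk2b level rose with that share (Pearson r = 0.88 and Spearman rho = 0.82, permutation p = 1e-05 for each, the smallest possible, adjusted p = 9e-05 over 9 members). It was 0.87 without the 2 mice farthest from the median share, and 0.94 and 0.86 within Cell Ranger versions 3.0.2 and 3.1.0.

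The deletion difference of Ptk2b in all excitatory neuron-like nuclei was -0.48 ± 0.18 (adjusted p = 0.26), and in hippocampal-like nuclei alone it was -0.03, from -0.26 to 0.19. The P301S difference was -0.34 (adjusted p = 0.20) over the whole class and 0.08, from -0.09 to 0.25, in hippocampal-like nuclei. The interaction was -0.93 (adjusted p = 0.113) and 0.05 in the same order. Levels in hippocampal-like nuclei were 475 ± 74.2 CPM in P301S Cgas+/+, 500 ± 30.5 CPM in P301S Cgas+/- and 474 ± 72.5 CPM in P301S Cgas-/- mice (n = 6 each). In dentate granule-like, CA1-like and CA3-like nuclei tested separately, 0 of 27 pairs of a member and a subclass were called with edgeR in any of the comparisons. Over all genes of these subclasses the share called was 0.00602% for tau on the Cgas+/+ background, 0.0% for deletion, 0.00602% for heterozygous loss, 0.202% for all P301S mice, 0.0% for the interaction and 2.34% for sex. At an unadjusted p under 0.05 there were 1, 2, 0, 3, 0 and 8 of the 27 pairs in the same order, against 2.94%, 3.46%, 4.72%, 7.8%, 2.19% and 16.5% of all genes. Mice with under 20 nuclei in a subclass were left out, which kept 26 mice for dentate granule-like and 22 for CA3-like nuclei.

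**Figure D5:**
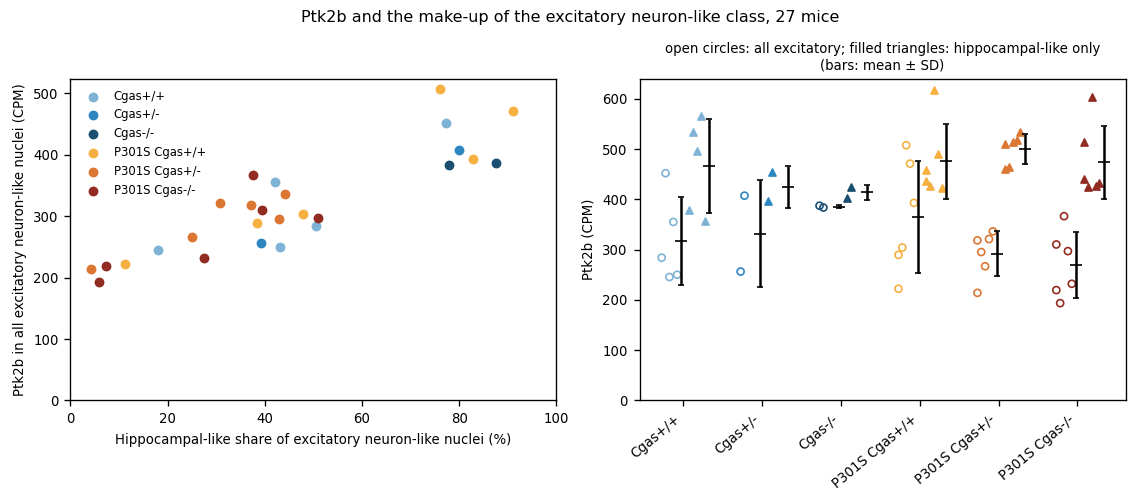
Left, Ptk2b in excitatory neuron-like nuclei (CPM) against the percentage of those nuclei that were hippocampal-like, 1 point per mouse. Right, Ptk2b by genotype group in all excitatory neuron-like nuclei and in hippocampal-like nuclei alone, where the means of the 3 P301S groups are 475, 500 and 474 CPM.

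The other 8 members were set against the same share. App (r = -0.62, rho = -0.58, permutation p = 0.00058 and 0.0019, adjusted p = 0.0017 and 0.0057) and Abca7 (r = -0.66, rho = -0.65, permutation p = 0.0002 and 0.00042, adjusted p = 0.0009 and 0.0019) fell as the hippocampal-like share rose, and both were low in dentate granule-like nuclei. Their r was -0.63 and -0.62 without the 2 mice farthest from the median share, -0.80 and -0.79 within version 3.0.2, and -0.72 and -0.58 within version 3.1.0. Psen2 (r = -0.47, rho = -0.38, permutation p = 0.014 and 0.05, adjusted p = 0.027 and 0.095) and Sorl1 (r = 0.46, rho = 0.35, permutation p = 0.015 and 0.073, adjusted p = 0.027 and 0.11) passed with Pearson's r but not with the rank correlation. Their r was -0.44 and 0.35 without 2 mice, -0.65 and 0.44 within version 3.0.2, and -0.24 and 0.59 within version 3.1.0. Bace1, Bin1, Picalm and Cd2ap had r between -0.34 and 0.36, with adjusted p from 0.097 to 0.77 for r, none past the threshold. The low Ptk2b levels of astrocyte-like nuclei, not told apart from background above, also ran with Ptk2b in the excitatory neuron-like nuclei of the same mouse. The values were r = 0.64 and rho = 0.58 (permutation p = 0.00031 and 0.0018, adjusted p = 0.0012 and 0.0072 over 4 classes), and r was 0.68 without 2 mice. That relation had r = 0.85 within version 3.0.2 and 0.52 within 3.1.0. Oligodendrocyte-like nuclei had r = 0.45 and rho = 0.47 (permutation p = 0.019 and 0.014, adjusted p = 0.025 and 0.028), with 0.55 without 2 mice and 0.65 and 0.34 within the versions in the same order. Inhibitory neuron-like nuclei passed with r = 0.59 (permutation p = 0.0013, adjusted p = 0.0026) and not by rank (rho = 0.37, adjusted p = 0.059), with 0.50 without 2 mice and 0.52 and 0.74 within versions. Progenitor-like nuclei did not pass with r = 0.35 (permutation p = 0.071, adjusted p = 0.071) but did by rank (rho = 0.41, adjusted p = 0.044), with 0.14 without 2 mice and 0.53 and 0.32 within versions. The P301S differences of Ptk2b in astrocyte-like (16 ± 6.39 against 20.7 ± 4.15 CPM, adjusted p = 0.0875) and oligodendrocyte-like nuclei (28.1 ± 9.65 against 37.7 ± 6.42 CPM, adjusted p = 0.185) were not past the threshold, and they were not tested after subtracting the estimated background.

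App in oligodendrocyte-like nuclei, its leading class, was 1630 ± 209 CPM in P301S and 1400 ± 75.8 CPM in transgene-free mice. The log2 difference of 0.20, with an interval of 0.02 to 0.38, had an adjusted p of 0.32. Differences for Bin1 in excitatory neuron-like nuclei (133 ± 16.3 against 142 ± 14.3 CPM, adjusted p = 0.136) and Sorl1 in dentate granule-like nuclei (234 ± 28.8 against 201 ± 21.3 CPM over 26 mice, adjusted p = 0.248) were likewise not past the threshold. The same held for App in progenitor-like nuclei (358 ± 46.6 against 327 ± 27.4 CPM, adjusted p = 0.511), Sorl1 in oligodendrocyte-like nuclei (84.5 ± 14.7 against 77.1 ± 12.7 CPM, adjusted p = 0.374), Psen2 in astrocyte-like nuclei (12.1 ± 3.09 against 10.4 ± 2.15 CPM, adjusted p = 0.234) and Abca7 in inhibitory neuron-like nuclei (18.3 ± 3.98 against 21.4 ± 4.47 CPM, log2 -0.31). In these classes, as in microglia-like nuclei, the values of P301S and transgene-free mice overlapped.

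Between females (11 mice) and males (12 mice) of the 4 groups with both sexes, 1 of 54 pairs was called with edgeR, against 3.04% of all genes, and 8 had an unadjusted p under 0.05, against 16.2%. It was Abca7 in oligodendrocyte-like nuclei, where females ranged from 16.4 to 23.9 CPM (median 18.9) and males from 11.8 to 19.7 CPM (median 14.1). The fitted difference was 0.43 ± 0.11 (log2, 1.35-fold, adjusted p = 0.0339). All libraries of Cell Ranger 3.0.2 came from males, and with the version as a covariate the difference was 0.26 (adjusted p = 0.513). The call was kept in 12 of 23 fits that left out 1 mouse.

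The other sex differences with an unadjusted p under 0.05 were not past the adjusted threshold. Ptk2b in excitatory neuron-like nuclei had 348 ± 86.3 CPM in females and 276 ± 67.3 CPM in males (log2 0.39, adjusted p = 0.0689), and in hippocampal-like nuclei alone the difference was 0.24 (adjusted p = 0.0955). In CA1-like nuclei females had 421 ± 47.5 and males 361 ± 51.5 CPM of Ptk2b (adjusted p = 0.0925), and 328 ± 39.9 and 279 ± 40.7 CPM of Sorl1 (adjusted p = 0.0977). Picalm means in females and males were 314 ± 34.1 and 361 ± 36.4 CPM in oligodendrocyte-like nuclei (adjusted p = 0.223) and 89.4 ± 12.4 and 107 ± 14.8 CPM in progenitor-like nuclei (adjusted p = 0.214). Bin1 in microglia-like nuclei stood at 950 ± 130 CPM in females and 813 ± 143 CPM in males (adjusted p = 0.441). Sorl1 and Bin1 in excitatory neuron-like nuclei had log2 differences of 0.25 and 0.15 (adjusted p = 0.109 and 0.12). Abca7 was also higher in females in astrocyte-like nuclei (7.79 ± 1.59 against 5.88 ± 1.45 CPM, log2 0.44, adjusted p = 0.144). In dentate granule-like nuclei its means were 6.67 ± 1.57 and 4.71 ± 1.23 CPM (log2 0.52, adjusted p = 0.0673). Ptk2b and Bin1 in those nuclei had log2 differences of 0.19 and 0.17 (adjusted p = 0.129 and 0.2). Cd2ap was lower in females in dentate granule-like (log2 -0.29, adjusted p = 0.0703) and CA3-like nuclei (log2 -0.4, adjusted p = 0.196). App was also lower in females in CA3-like nuclei (log2 -0.21, adjusted p = 0.256).

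Single levels were also compared by an exact 2-sided permutation test over mice for the members, classes and the 3 comparisons of P301S Cgas+/+ with another group. Of 162 tests 7 had p below 0.05 and 0 after adjustment (lowest adjusted p 0.701), where the smallest p the design allows is 0.00216 for 6 against 6 mice and 0.00433 for 5 against 6. With 162 tests a lone comparison could not pass the adjustment even at those values. The share of all genes with p below 0.05 is not given for this test, so the count of 7 stands without a background.

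Among 103 other pathway genes in 5 lists, 24 of 520 pairs of a gene and a class were called between P301S and transgene-free mice. Of these 12 were higher and 12 lower, and the share called over all genes of the 6 classes was 2.52%. The count of 24 ran from 3 to 36 when each of the 27 mice was left out in turn. Calls for single genes named below can thus depend on which mice are included. Of the 10 secretase subunits and cofactors 0 of 56 pairs were called with edgeR in each of the 6 comparisons, with 1 to 10 at an unadjusted p under 0.05. Over all genes the shares were 0.0% to 3.04% called and 5.44% to 16.2% at an unadjusted p under 0.05. The smallest p values of that list were for the γ-secretase subunits Aph1a in astrocyte-like nuclei (log2 -0.51, adjusted p = 0.234) and Aph1c in oligodendrocyte-like nuclei (log2 -0.77, adjusted p = 0.713), both between P301S Cgas+/+ and Cgas+/+. Over all genes tested in microglia-like nuclei 7.45% rose in P301S mice and 11.6% were called in either direction, and the counts that follow are to be read beside these shares. Of the App family and its adaptors, 2 of 8 genes tested there rose: Apbb2, an adaptor that binds the App tail, from 435 to 1080 CPM (log2 1.43 ± 0.30, adjusted p = 0.00535), and the App relative Aplp2 from 60.3 to 100 CPM (log2 0.93, adjusted p = 0.0285). The median of the 8 was -0.10, beside 0.00 over all genes.

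Of the amyloid-degrading enzymes 1 of 4 rose in microglia-like nuclei, the protease Ctsb from 150 to 352 CPM (log2 1.37 ± 0.25, adjusted p = 0.00279). Of 33 endocytosis and retromer genes tested there, 1 rose (Sh3kbp1, a relative of Cd2ap, log2 0.33, adjusted p = 0.0305) and 4 fell, among them the sorting receptor Sort1 (log2 -0.37, adjusted p = 0.0217) and the clathrin adaptor subunit Ap2a2 (log2 -0.38, adjusted p = 0.0212). Their median was 0.04, with 5 of 33 called against 11.6% of all genes. Of 30 genes tested from the list of other risk genes 5 rose and 4 fell in microglia-like nuclei. The share over all genes was 11.6% in either direction, and the median of the 30 was -0.03. Plekha1 (log2 0.85), the protease Ctsh (0.67), the lysosomal protein Grn (0.57), Ms4a6d (0.77) and Blnk (0.38) rose. Cass4 (log2 -1.24) and the netrin receptor Unc5c (-0.93), whose levels in neuron-like nuclei were higher and moved the same way, fell. Siglech also fell (log2 -0.85, adjusted p = 0.0147). It is a microglial lectin that is also in the marker list, and its place among these genes is no evidence of human risk.

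In neurons the calls were other genes of the lists. Unc5c fell in inhibitory neuron-like (from 1380 to 782 CPM, log2 -0.99 ± 0.12, adjusted p = 6.6e-05) and in excitatory neuron-like nuclei (from 726 to 408 CPM, log2 -0.88, adjusted p = 0.0113). The transcription factor Mef2c (log2 0.77, adjusted p = 0.0404) and the Sorl1 relative Sorcs1 (log2 0.80, adjusted p = 0.0368) rose in excitatory neuron-like nuclei, the class whose make-up differed between groups. Between P301S Cgas+/+ and Cgas+/+, Apoe fell in oligodendrocyte progenitor-like nuclei from 395 to 243 CPM (log2 -0.71, adjusted p = 0.0444). Apoe is abundant in astrocytes, and 8 astrocyte markers, none of them at 0, stood in progenitor-like nuclei at 0.906% to 18.5% of their astrocyte-like level (median 4.27%). Their summed level in progenitor-like nuclei ranged from 902 to 1180 CPM in P301S Cgas+/+ and from 1010 to 1210 CPM in Cgas+/+ mice, and their part in the Apoe difference was not tested. In oligodendrocyte-like nuclei the App relative Aplp1 (log2 0.57, adjusted p = 0.00964) and Itm2b, a membrane protein that binds App (log2 0.45, adjusted p = 0.0126) were higher in females, with the same overlap of sex and software version as for Abca7.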

How the data were processed

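Hippocampal nuclei of each of 27 mice gave 1 library (10x Chromium 3′ v3). The values deposited are unnormalized UMI counts for every called barcode. The authors had aligned the reads to mm10 and counted pre-mRNA with Cell Ranger. The submitters' processing notes give Cell Ranger 3.1.0 and Seurat 3.0, and the file headers give versions 3.0.2 (12 libraries) and 3.1.0 (15 libraries). The annotation release is not given in the sources used here.

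Nuclei passed with 200 to 4000 genes and no more than 5% mitochondrial UMIs. The upper limit removed from 289 barcodes (Cgas+/+ replicate 5) to 2066 barcodes (P301S Cgas-/- replicate 2) per library. Its part in the shares of UMIs by class and of hippocampal-like nuclei was not tested. Scrublet scores (scanpy 1.11.5) removed 16429 predicted doublets, at 0.8% per 1000 barcodes. Counts were scaled to 10000, and 2000 variable genes, 30 components and 15 neighbours gave Leiden clusters (igraph 0.11.9, resolution 1). The members could be among the variable genes. A name needed at least 3 markers detected in 10% of nuclei at a log2 fold over 0.5. The naming thresholds, and a minimum score of 0.42 for excitatory subclasses, were set after clusters had been seen and before groups were compared. The members and gene lists were chosen with earlier results of these data known.

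Counts were summed per mouse and class (at least 20 nuclei) and tested with edgeR 4.0.16 (R 4.3.3, TMM, filterByExpr, robust quasi-likelihood fit, sex as covariate, Benjamini-Hochberg threshold 0.05). The comparisons within P301S, of tau on the Cgas+/+ background and of sex used 23 mice of 4 groups, and the others all 27. DESeq2 1.42.0, other scaling, filters, covariates and leaving out each mouse were alternatives. Scripts were tested on simulated data. Class levels were compared as log2(CPM + 1). Correlations used 100000 permutations, and CPM are UMIs per 1000000 of the class in a mouse. Other genes named are those called, at most 10 per list by p, or the smallest p of a list without calls. Mice are separate animals. Intervals give the uncertainty of a fitted mean difference, estimated from the variation between mice, and not the range of single mice. Depth limits the sparse members, such as Psen2 with 538 microglial UMIs.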

Additional observations from a re-analysis of the deposited data

Results flagged for a closer look

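Levels of members in the 6 classes were screened for a mouse far from the rest of its group. In 7 of 216 groups the highest or lowest mouse was farther from its neighbour than Dixon's 95% limit allows, where chance flags about 1 in 20 (10.8 groups). Of the 7, 4 concern Ptk2b in classes where its level was low. In inhibitory neuron-like nuclei Cgas+/+ replicate 2 had 140 CPM of Ptk2b, and the next mouse of the group 20 CPM. The same mouse was the highest of its group for Ptk2b in astrocyte-like nuclei (25.8 CPM, next 18.6 CPM), and it also had the highest excitatory neuron-like Ptk2b of its group (452.1 CPM). In astrocyte-like nuclei P301S Cgas+/+ replicate 4 had 35.7 CPM of Ptk2b (next 17.7 CPM), and P301S Cgas+/- replicate 6 had 22.9 CPM (next 15.1 CPM). Psen2 was high in excitatory neuron-like nuclei of P301S Cgas+/- replicate 3 (14.9 CPM, next 12.3 CPM). Cgas+/+ replicate 5 was the lowest of its group for Bace1 in inhibitory neuron-like nuclei (31.2 CPM, next 37.5 CPM) and for Psen2 in oligodendrocyte progenitor-like nuclei (6.20 CPM, next 12.1 CPM). The cause of these values was not tested.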

How the results depend on the processing

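The count of 3 members called for P301S became 0 in the libraries of Cell Ranger 3.0.2 and 0 in those of 3.1.0, settings chosen after seeing the data that hold fewer mice, 4 with DESeq2, and 1 to 4 when each mouse was left out (1 without Cgas+/- replicate 2 or Cgas-/- replicate 2). Ptk2b in microglia-like nuclei was past the threshold in 35 of 37 alternatives, Sorl1 in 33 and Psen2 in 17. For tau on the Cgas+/+ background the count of 0 became 1 with DESeq2, 1 without a filter on low counts, 1 without both P301S Cgas+/+ libraries 2 and 3, and 0 to 1 with each mouse left out (1 without P301S Cgas+/+ replicate 2), each time Ptk2b in microglia-like nuclei. For sex 1 became 0 with the software version as a covariate, 2 with DESeq2 and 0 to 2 with each mouse left out. The interaction count of 0 became 1 without Cgas+/+ replicate 2 or P301S Cgas+/+ replicate 1. The 24 pairs of other pathway genes became 44 with DESeq2, 8 and 1 within versions 3.0.2 and 3.1.0, and 3 to 36 with each mouse left out (3 without Cgas+/- replicate 2). Directions turned for Ptk2b in excitatory neuron-like nuclei, to 0.08 (P301S) and 0.05 (interaction) in hippocampal-like nuclei alone and to 0.19 (P301S) within version 3.1.0, for Sorl1 in those nuclei to 0.26 (interaction, hippocampal-like), and for Cd2ap in inhibitory neuron-like nuclei to -0.03 (tau, version 3.0.2). Beyond the smaller numbers of mice and of nuclei, the cause was not tested. The counts of 0 for deletion and heterozygous loss stayed at 0 under every alternative run for them, and the 43 steps between classes past the threshold became 44 or 45 under 3 alternatives. The single-level tests, where a lone comparison could not pass the adjustment, say nothing on stability. No paired analysis was possible because the labels give no replicate numbers, and those used here only name the mice of a group.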
